A study of Homo sapiens with 12 samples.

Results

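The proteasome genes of HCC1806 cells were examined by mRNA sequencing after knock-down of the kinase MLK4 and after doxorubicin. Members were the protein-coding genes whose symbol starts with PSMA, PSMB, PSMC, PSMD, PSME, PSMF or PSMG followed by a digit. The rule took 48 of the 17013 genes measured. It found 46 genes of the proteasome, its activators and its assembly chaperones, and 2 genes that share only the start of the name, PSMC3IP (also HOP2, a recombination factor) and PSME3IP1 (also PIP30, which binds PSME3). These 2 genes were counted as members. HCC1806 is an established triple-negative breast cancer line with basal features, and doxorubicin is an anthracycline that poisons topoisomerase II and causes DNA breaks.

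The 12 libraries formed 4 groups of 3. Cells were transfected with a non-targeting control siRNA (siNT) or with a siRNA pool against MLK4 (siMLK4), and then received vehicle or doxorubicin at 1 μM for 24 h. The sources differ on the vehicle cells. The labels name DMSO, the supplement describes DMSO for 24 h, the sample names say time 0, and the methods call the cells untreated. All groups therefore carried a transfected siRNA, the knock-down was transient, and 1 cell line was used. The study's methods describe transfection in triplicate, while neither they nor the labels say that the 3 libraries of a group came from experiments on separate days, so p-values measure the spread between these transfections, which may be technical. MLK4 is the product of MAP3K21. Its normalized read counts were 553, 670 and 674 in siNT vehicle cells and 103, 94.7 and 88.7 in siMLK4 vehicle cells, and with doxorubicin they were 758, 856 and 772 against 113, 138 and 94.4. After knock-down 15.1% of the mean control count was left in vehicle cells and 14.5% with doxorubicin (limma adjusted p = 9.7e-08 and 1.1e-07). The basal keratin KRT5 was at 5954 to 33620 normalized reads and TP63 at 1009 to 6590, whereas the estrogen receptor gene ESR1 was at 36.0 to 149, the progesterone receptor gene PGR was at 0 in every vehicle library and at 7.26 to 18.5 with doxorubicin, and ERBB2 was at 1272 to 2027. Depth was 16759025 to 19302248 reads per library. Replicates 1 and 3 of both vehicle groups stood furthest apart: the chi-square of their counts, divided by its degrees of freedom, was 60.8 in siNT and 67.2 in siMLK4 cells against 7.19 to 39.6 for the other replicate pairs. Mitochondrial genes took 1.74% of the reads in siNT vehicle replicate 1 and 2.89% and 3.67% in replicates 2 and 3, and the members took 0.891%, 0.842% and 0.747%. With doxorubicin the mitochondrial share was 3.57%, 2.62% and 3.52% in siNT cells. In siMLK4 cells it was 3.84%, 4.56% and 4.75% with doxorubicin, above the 3.25%, 2.60% and 3.07% with vehicle and above every siNT doxorubicin library. The part of this share in the member changes was not tested. In bulk RNA, fewer cells of a kind and less RNA per cell cannot be told apart.

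The proteasome is the protease complex that degrades proteins tagged with ubiquitin. Its core is a stack of rings: the outer alpha rings gate the channel, and the inner beta rings hold the catalytic sites of PSMB5, PSMB6 and PSMB7. A regulatory particle binds the core. Its base unfolds substrates with a ring of ATPases (PSMC1 to PSMC6), and its lid removes ubiquitin through PSMD14. Interferon and related signals induce PSMB8, PSMB9 and PSMB10, which replace PSMB5, PSMB6 and PSMB7 in newly built immunoproteasomes, and the activator made of PSME1 and PSME2. Most constitutive subunit genes are known to be raised together by the transcription factor NFE2L1 when proteasome activity falls.

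Promoter stretches of the inducible genes are shown first, since PSMB9 and PSMB10 were the subunit genes that rose with doxorubicin in both siRNA groups, while PSMB8 did not pass the test. RefSeq promoter windows (GRCh38.p14, 250 bases before to 50 after the start) were matched for 42 of the 48 members. A gene could have several windows, and it was counted when any of them held the motif. The letters of an interferon-stimulated response element, GAAA followed after any 2 bases by another GAAA, were searched on both strands. They stood in a window of 7 of the 42 genes (16.7%) against 3.96% of 10994 protein-coding genes of the table. Capitals mark the motif in the following stretches, each read along the strand of its gene.
PSMB8, chr6:32844032-32844061, minus strand: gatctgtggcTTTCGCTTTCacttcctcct
PSMB10, chr16:67936852-67936881, minus strand: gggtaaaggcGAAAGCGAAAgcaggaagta
PSME1, chr14:24136189-24136218, plus strand: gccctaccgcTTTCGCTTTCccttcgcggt
PSME2, chr14:24146619-24146648, minus strand: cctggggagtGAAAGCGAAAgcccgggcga
The other genes with the motif were PSMA4, PSMB4 and PSMG4. No window of PSMB9 held these letters. Of the 7 genes PSMB10 was called higher with doxorubicin in both siRNA groups, and PSMA4 lower. PSMB8, PSME1, PSME2, PSMB4 and PSMG4 were not called with doxorubicin. The motif TGACNNNGC holds the letters of an antioxidant response element to which NFE2L1 and NFE2L2 can bind. It stood in a window of 15 of the 42 genes (35.7%) against 19.4% of the 10994 genes. It is shown for the lid gene PSMD3, which fell with doxorubicin, and for PSMB3, which was not called in any comparison.
PSMD3, chr17:39980760-39980788, plus strand: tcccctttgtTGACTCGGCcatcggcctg
PSMB3, chr17:38752627-38752655, plus strand: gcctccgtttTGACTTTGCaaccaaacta
CCAAT stood in a window of 21 of the 42 genes (50% against 43.5%). TTCNNNGAA, the letters of a gamma-activated site, stood in a window of 7 of 42 (16.7% against 8.41%). These matches describe letters in a window and not binding.

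Levels were compared between genes as normalized reads per kb of the canonical transcript, averaged over the 4 groups. The order depends on the length used: per kb of all annotated exons, PSMA5 was lowest of the 11 core genes described next at 558 and PSMB3 highest at 3510, PSMC3 at 2064 was above PSMC5 at 1164, and PSME2 was at 513. Subunits that occupy the core in equal number differed in mRNA level. Without the 3 alpha genes described next, the 11 core genes ran from 775 for PSMB2 to 5660 for PSMB4, a ratio of 7.30. PSMA7 led the alpha ring at 4591, and PSMA5 was lowest at 838. Among the ATPases PSMC5 was at 3743 and PSMC1 at 997. PSMD2, a scaffold of the base, was at 4840, and PSMD1 at 1755. In the lid, levels ran from 652 for PSMD6 to 2877 for PSMD8. The activator genes PSME2 and PSME1 were at 2317 and 2274, and PSMF1, a regulator first described as an inhibitor, was at 183. Among the chaperones PSMG3 was highest at 1082, and PSMD5 was at 451. 

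The 4 members under 100 reads per kb were PSMB10 at 59.6, PSMA2 at 43.9, PSMA6 at 39.5 and PSMD9 at 16.7. In each of them at least 20% of the canonical exons lay inside another protein-coding gene annotated on the same strand, which covered 56.1% of PSMB10, 100% of PSMA2, 81.4% of PSMA6 and 28.8% of PSMD9. PSMA1 had such a partner over 67.0% of its exons. A read that falls in both genes can be dropped or moved by the counting step, so the levels of these 5 genes are uncertain. Of their partners, that of PSMB10 was the one in the table, at a mean of 9.31 normalized reads.

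**Figure D1:**
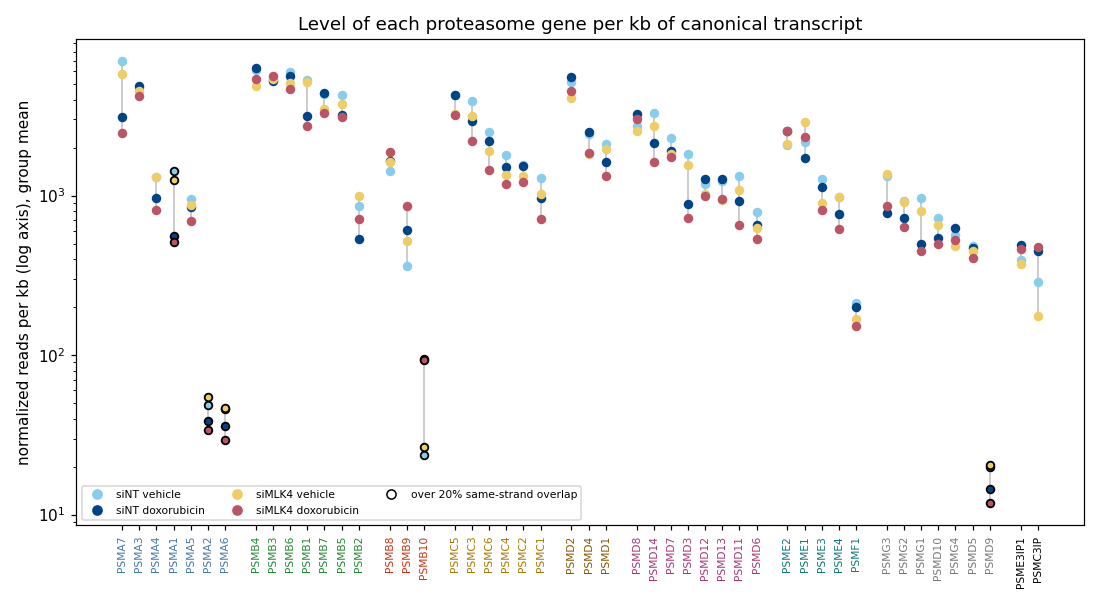
Mean normalized reads per kb of canonical transcript (log axis) for each of the 48 members in the 4 groups, ordered by level within each role, with role shown by the colour of the name; grey lines span the 4 group means and black rims mark same-strand overlap of at least 20%. The 4 genes under 100 reads per kb in the average over groups all carry black rims.

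Doxorubicin against vehicle was the first comparison. In siNT cells 18 members fell and 5 rose, and in siMLK4 cells 21 fell and 4 rose (limma, Benjamini-Hochberg adjusted p under 0.05 over 17013 genes). PSMC3IP and PSME3IP1, which are not subunits, were 2 of the 5 and 2 of the 4 that rose. Over all genes the same test called 27.7% lower and 29.6% higher in siNT cells, and 27.7% lower and 30.2% higher in siMLK4 cells. For the members these shares were 37.5% lower and 10.4% higher in siNT cells and 43.8% and 8.33% in siMLK4 cells, and the difference from all genes was not tested. The median member change was −0.18 (log2) in siNT cells and −0.20 in siMLK4 cells, beside 0.01 and 0.02 for all genes. Without siNT vehicle replicate 3 the siNT median was −0.27. Scaling by library totals brought the median of all genes to 0.24 and 0.21 and the member median to 0.04 in siNT cells and −0.03 in siMLK4 cells. Relative to the median of all genes the members stayed at −0.21 and −0.24 under that scaling. When genes that had fewer than 10 reads in any library were dropped, leaving 13295, the median of all genes was −0.08 and −0.05. The members were then at −0.10 and −0.15 relative to it. Of these genes 31.9% and 30.7% were called lower, and 23.7% and 25.2% higher. The members called were then 17 and 21 lower, and 5 and 5 higher. Under library totals all genes split into 6788 higher and 3117 lower in siNT cells, against 5029 and 4716 with the deposited scaling, and members into 9 higher and 8 lower, where 39.9% and 18.3% of all genes were called. By the libraries alone, 20 members in siNT cells and 23 in siMLK4 cells had every doxorubicin library below every vehicle library (30.4% and 30.5% of all genes), and 5 in each had them above (32.0% and 33.4%). The 8 lower calls that held under library totals in siNT cells were those of PSMA1, PSMA7, PSMB1, PSMB2, PSMD3, PSMD11, PSMD14 and PSMG1, and under the same scaling in siMLK4 cells those of PSMA2, PSMA5, PSMA6, PSMC6, PSMD10, PSMG2 and PSMG3 were lost. Of these, PSMA2 and PSMA6 went from −0.421 and −0.355 to −0.516 and −0.519 (limma adjusted p = 0.082 and 0.092). Library totals were fitted on log2 of scaled reads plus 1, while the deposited values compress low counts. For these low genes the values are therefore not on a like scale. With the deposited scaling the siMLK4 doxorubicin mean was 62.1% of vehicle for PSMA2 and 62.8% for PSMA6. PSMA5, PSMC6, PSMD10, PSMG2 and PSMG3 shrank to −0.14, −0.21, −0.227, −0.33 and −0.441. Among the members called, 15 fell and 4 rose in both siRNA groups, which is 83.3% and 71.4% of those that fell and 80.0% and 100% of those that rose. The responses shared no library, and across the 48 members their Pearson correlation was 0.95, with genes as points that are not independent. This overlap and correlation were not computed over all genes, so the agreement is not shown to be particular to the members.

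The deepest falls were in the core alpha ring and the lid. PSMA7 (chromosome 20, 62136733 to 62143440) had 8532, 6431 and 5182 normalized reads in siNT vehicle cells and 3217, 2701 and 3025 with doxorubicin. In siMLK4 cells it had 4543, 5547 and 6692 reads and then 2382, 2054 and 2691. Every doxorubicin library lay below every vehicle library. The fall was 1.13 ± 0.18 on the log2 scale (SE, n = 3, limma adjusted p = 9.4e-05) and 1.21 ± 0.18 (limma adjusted p = 5.4e-05). PSMA1 fell by 1.23 ± 0.24 in both siRNA groups, to 39.3% and 41.1% of vehicle, with the overlap given above. PSMA4, another alpha subunit, fell by 0.42 ± 0.14 and 0.66 ± 0.14, and its siNT call was lost under library totals (−0.18, limma adjusted p = 0.26) and when either replicate 1 of vehicle or replicate 2 of doxorubicin was left out. PSMA3 did not pass the test, at 0.05 ± 0.17 and −0.08 ± 0.17.

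PSMD3 (chromosome 17, 39980807 to 39997959), a lid subunit, had 3619, 4221 and 3880 reads in siNT vehicle cells and 1920, 1807 and 1963 with doxorubicin. In siMLK4 cells the values were 3371, 3527 and 3138 and then 1567, 1459 and 1622. The groups did not overlap, and its 3 libraries were tight in each group. It fell by 1.02 ± 0.10 (limma adjusted p = 1.4e-06) and 1.08 ± 0.10 (limma adjusted p = 8.8e-07), to 48.6% and 46.3% of vehicle. The lid deubiquitinase PSMD14 fell by 0.63 and 0.74, and PSMD11 by 0.51 and 0.72. The lid did not move as 1 block: PSMD12 was at 0.11 and −0.03 and PSMD13 at 0.05 and 0.01. PSMD8 rose in siNT cells by 0.26 ± 0.10 (limma adjusted p = 0.042, and 0.055 with the replicate block). It stood at 0.25 in siMLK4 cells (limma adjusted p = 0.053). The siNT call held in 5 of the 12 fits without 1 library. It was lost under TMM scaling, with only the groups compared and with centring by transcript length, while library totals gave 0.505 (limma adjusted p = 0.001).

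The beta ring divided in the same way. PSMB1, which has no catalytic site, had 5461, 4544 and 4114 reads in siNT vehicle cells and 2941, 2542 and 2909 with doxorubicin. It fell by 0.73 ± 0.15 and, in siMLK4 cells, by 0.89 ± 0.15. PSMB2, also without a catalytic site, fell by 0.67 ± 0.11 and 0.49 ± 0.11. PSMB3, PSMB4, PSMB6 and PSMB7 were not called, with values between −0.09 and 0.17. PSMB5, the chymotrypsin-like subunit, fell by 0.40 ± 0.16 in siNT cells (limma adjusted p = 0.041, and 0.057 with the replicate block) and was at −0.25 ± 0.16 in siMLK4 cells (limma adjusted p = 0.18). Without 1 library at a time its siNT value ran from −0.55 to −0.245, and the call held in 6 of 12 fits. Under library totals it was at −0.162 (limma adjusted p = 0.38).

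In the base, PSMC1, PSMC3 and PSMD1 fell in both siRNA groups, PSMC3 by 0.41 ± 0.11 and 0.53 ± 0.11. Under library totals these 3 calls were lost in siNT cells, where PSMC1 was at −0.16, PSMC3 at −0.17 and PSMD1 at −0.14 (limma adjusted p = 0.23, 0.16 and 0.24), and held in siMLK4 cells. PSMC4 fell in siNT cells by 0.24 ± 0.10 (limma adjusted p = 0.044, and 0.056 with the replicate block), and PSMC6 in siMLK4 cells. Under library totals PSMC4 was at −0.002 in siNT cells (limma adjusted p = 0.99), and its call held in 4 of the 12 fits without 1 library. PSMC2, PSMC5, PSMD2 and PSMD4 were not called. Of the chaperones, PSMG1, which pairs with PSMG2 in building the alpha ring, had 1822, 1677 and 1615 reads in siNT vehicle cells and 763, 750 and 1086 with doxorubicin. In siMLK4 cells it had 1260, 1415 and 1558 and then 776, 575 and 1026. The groups did not overlap, and replicate 3 of both doxorubicin groups was the highest. PSMG1 fell by 0.95 ± 0.18 (limma adjusted p = 0.00042) and 0.82 ± 0.18 (limma adjusted p = 0.0012). PSMG3 fell by 0.70 and 0.61, and PSMD10 (gankyrin) by 0.39 in both. Under library totals these calls were lost, with a limma adjusted p of 0.054 and 0.076 for PSMG3 and of 0.22 and 0.11 for PSMD10. The values were then −0.483 and −0.441 for PSMG3 and −0.173 and −0.227 for PSMD10.

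**Figure D2:**
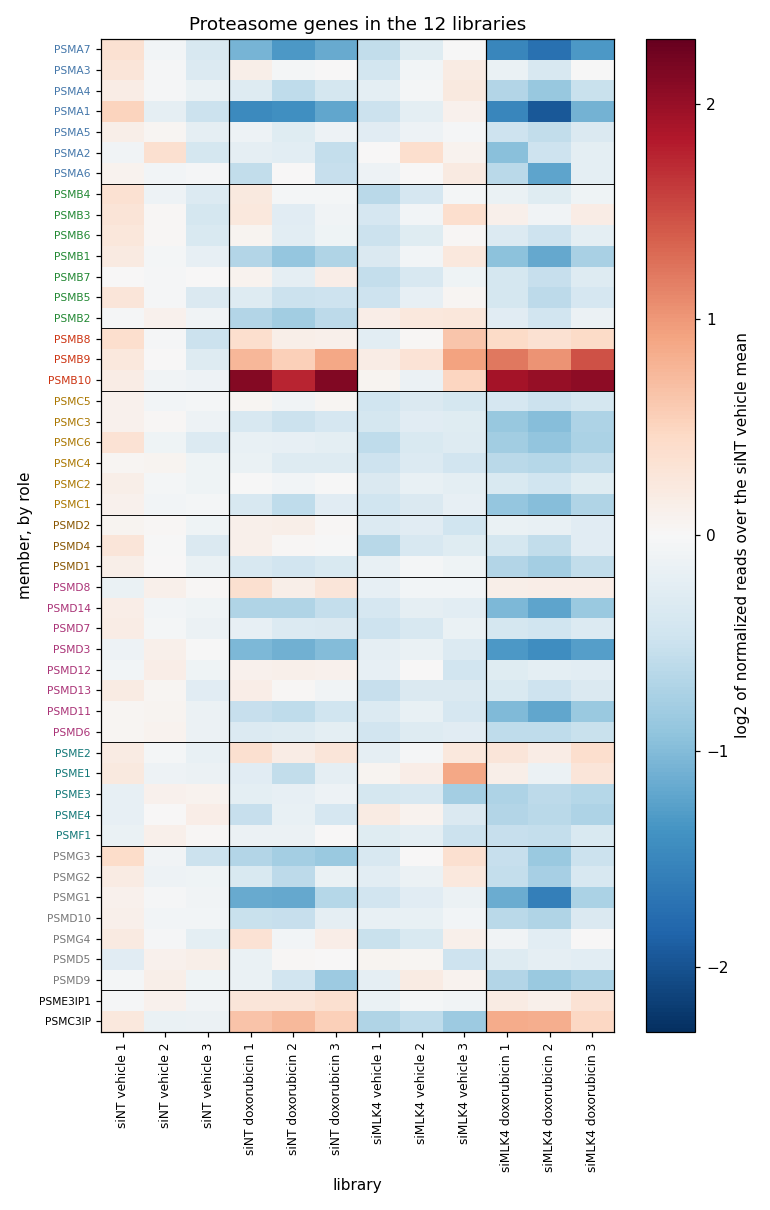
Normalized reads of the 48 members in the 12 libraries, as log2 of the ratio to the siNT vehicle mean, by role; blue is lower and red is higher. PSMA7, PSMA1, PSMD3 and PSMG1 are blue and PSMB9, PSMB10 and PSMC3IP red in every doxorubicin library of both siRNA groups.

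**Figure D3:**
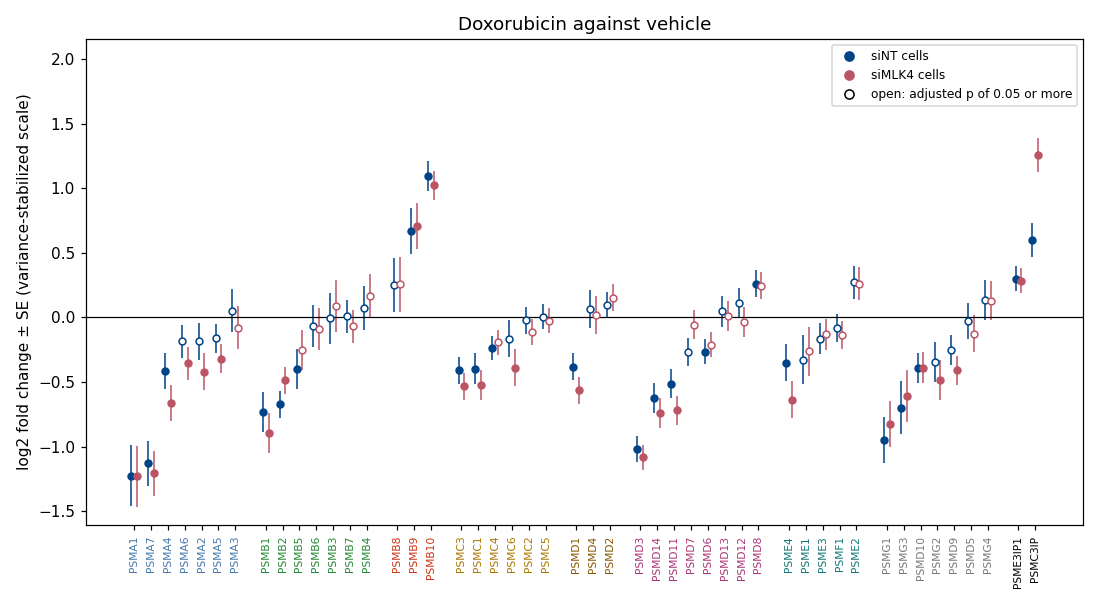
Log2 fold change (doxorubicin against vehicle, ± SE from limma, n = 3 against 3) of each member in siNT and siMLK4 cells, grouped by role; open points did not pass an adjusted p of 0.05. PSMA1, PSMA7 and PSMD3 are lowest and PSMB10, PSMB9 and PSMC3IP highest.

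The subunit genes that rose in both siRNA groups were PSMB9 and PSMB10. PSMB9 (chromosome 6, 32844136 to 32859851), the immunoproteasome counterpart of PSMB6, had 437, 372 and 300 reads in siNT vehicle cells and 624, 538 and 684 with doxorubicin. In siMLK4 cells it had 415, 460 and 702 and then 855, 755 and 1018. Doxorubicin libraries were above vehicle libraries in both, although replicate 3 of siMLK4 vehicle came near. PSMB9 rose by 0.67 ± 0.18 (limma adjusted p = 0.0052) and 0.71 ± 0.18 (limma adjusted p = 0.0037). 

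PSMB10 (chromosome 16, 67934506 to 67936864), the counterpart of PSMB7, had 25.8, 21.8 and 21.3 reads in siNT vehicle cells and 99.7, 77.4 and 100.4 with doxorubicin. In siMLK4 cells it had 24.1, 20.9 and 32.4 and then 86.5, 91.7 and 96.2. Its means were 4.02 and 3.55 times those of vehicle, and on the variance-stabilized scale, which compresses low counts, it rose by 1.09 ± 0.11 (limma adjusted p = 2.9e-06) and 1.02 ± 0.11 (limma adjusted p = 5.3e-06). Beside this low gene, the number of genes with 0 reads was 200 to 354 in vehicle libraries and 17 to 42 with doxorubicin, and PTPRC, a leukocyte gene foreign to this line, stood at 0 to 7.86 reads and then at 11.9 to 21.2; the part of this shift in the PSMB10 result was not tested. The other members under 100 reads per kb, PSMA2, PSMA6 and PSMD9, were at −0.18, −0.19 and −0.25 in siNT cells, and all 3 fell in siMLK4 cells. They had more reads in siNT vehicle cells, with means of 69.6, 46.7 and 54.2 against 23.0 for PSMB10, so they do not decide that question. PSMB8, the most abundant immunoproteasome subunit, did not pass the test. It had 2094, 1569 and 1130 reads in siNT vehicle cells and 2100, 1761 and 1729 with doxorubicin, which overlap, and a change of 0.25 ± 0.21 (limma adjusted p = 0.32, 95% interval −0.20 to 0.70).

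Against the subunit each one replaces, all 3 immunoproteasome genes gained. Per kb, PSMB8 was 32.8% ± 3.07 of PSMB5 (SD, n = 3) in siNT vehicle cells and 51.8% ± 1.57 with doxorubicin, and 42.8% ± 6.60 and 61.0% ± 2.81 in siMLK4 cells. PSMB9 was 6.16% ± 0.193 of PSMB6 and then 10.9% ± 1.13, and 10.1% ± 1.15 and then 18.3% ± 1.25 in siMLK4 cells. PSMB10 was 0.541% ± 0.0557 of PSMB7 and then 2.15% ± 0.0640, and 0.758% ± 0.107 and then 2.85% ± 0.226. In each pair and each siRNA group the lowest doxorubicin library was above the highest vehicle library. These ratios carry no test of their own, and for PSMB8 the gain came with both a lower PSMB5 and a higher PSMB8 mean.

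**Figure D4:**
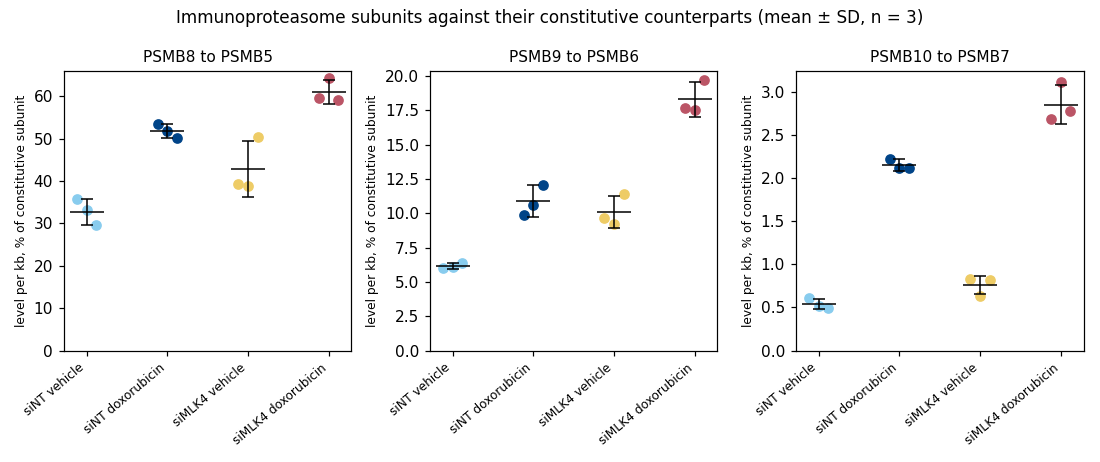
Level per kb of PSMB8, PSMB9 and PSMB10 as a percentage of PSMB5, PSMB6 and PSMB7 in each library of the 4 groups, with the mean and SD (n = 3); each axis starts at 0. Within each siRNA group the 3 doxorubicin libraries lie above the 3 vehicle libraries in all 3 pairs.

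The activators did not follow PSMB9 as a group. PSME2 was at 0.27 ± 0.13 and 0.26 ± 0.13 (limma adjusted p = 0.083 and 0.092), and its partner PSME1 was at −0.33 ± 0.19 and −0.26 ± 0.19 (limma adjusted p = 0.16 and 0.25). PSME4, a nuclear activator, fell by 0.35 ± 0.14 in siNT cells (limma adjusted p = 0.048, and 0.057 with the replicate block) and by 0.64 ± 0.14 in siMLK4 cells (limma adjusted p = 0.0017). In siNT cells library totals gave −0.115 (limma adjusted p = 0.54), and the call held in 4 of the 12 fits without 1 library. PSME3 and PSMF1 were not called. The 2 name matches rose in both siRNA groups. PSMC3IP had 462, 350 and 353 reads in siNT vehicle cells and 613, 651 and 564 with doxorubicin, and in siMLK4 cells 241, 260 and 216 and then 697, 695 and 538. It rose by 0.60 ± 0.13 (limma adjusted p = 0.0014) and 1.255 ± 0.13 (limma adjusted p = 3e-06). Genes on the other strand cover 57.2% of its exons, and the supplement describes strand-specific counting, which assigns reads by strand. PSME3IP1 rose by 0.30 and 0.28.

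Whether the doxorubicin response differed with MLK4 knock-down was asked with the interaction term. No member was called by limma, which called 0.576% of all genes with a larger and 0.623% with a smaller value in siMLK4 cells, and none by limma-voom on the recovered reads, which called 0.494% and 0.447%. The unadjusted p was under 0.05 for 14.5% of all genes and for 1 member, PSMC3IP, with a difference of 0.66 ± 0.19 between the responses (limma adjusted p = 0.097, 95% interval 0.26 to 1.06). For PSMD3 the difference was −0.06 (95% interval −0.36 to 0.23) and for PSMB9 0.04 (95% interval −0.50 to 0.57). Differences inside these intervals could not be resolved with 3 libraries a group.

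MLK4 knock-down against the control siRNA was the other comparison. In vehicle cells 10 members, PSMC3IP among them, fell and none rose, and in doxorubicin-treated cells 15 fell and 1 rose (limma, Benjamini-Hochberg adjusted p under 0.05). Over all genes 13.0% were called lower and 12.7% higher in vehicle cells, and 12.1% and 12.7% with doxorubicin. Without regard to calls, 37 of 48 members had a negative value in vehicle cells and 40 of 48 with doxorubicin, and the medians were −0.20 and −0.22 beside 0.01 and 0.02 for all genes. Library totals brought the median of all genes to 0.16 and 0.12 and left 2 and 6 members lower and 3 higher in each, where 8.34% and 8.94% of all genes were lower and 20.6% and 15.4% higher. The lower calls that held were those of PSMC3IP and PSME3 in vehicle cells, and of PSMC1, PSMC3, PSMC5, PSMC6, PSMD11 and PSME3 with doxorubicin. Relative to the median of all genes the member medians were then −0.21 and −0.28. The changes were small: none reached a stricter threshold, an adjusted p under 0.01 with a log2 change over 0.75, which 2.51% of all genes passed upward and 3.14% downward in vehicle cells and 2.66% and 2.93% with doxorubicin. Libraries did not overlap for 17 members lower and 1 higher in vehicle cells (18.0% and 19.7% of all genes) and for 23 lower and 3 higher with doxorubicin (21.1% and 22.8%). A lower call in both conditions was made for 6 members, PSMC3, PSMC4, PSMC5, PSMD13, PSME3 and PSMF1, which is 60% of the vehicle calls and 40% of those with doxorubicin. The share of all genes called lower in both was not computed, so this overlap is not shown to be particular to the members.

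All 6 ATPases had negative values in both conditions, and 3 of 6 fell in vehicle cells and 6 of 6 with doxorubicin. PSMC5 had 6063, 5463 and 5492 reads in siNT vehicle cells and 4114, 4530 and 4311 after knock-down. With doxorubicin it had 5836, 5386 and 5865 against 4366, 4052 and 4307. No knock-down library reached a control library. It fell by 0.39 ± 0.10 (limma adjusted p = 0.0081) and 0.42 ± 0.10 (limma adjusted p = 0.0053), whereas doxorubicin left it at 0.01 and −0.03. PSMC4 fell by 0.40 and 0.36, and PSMC3 by 0.31 and 0.43. Under library totals none of the 3 vehicle calls held (PSMC4 and PSMC5 with a limma adjusted p of 0.059, PSMC3 of 0.25), and with doxorubicin those of PSMC4 and PSMC2 were lost (0.057 and 0.085). The vehicle values were then −0.264, −0.25 and −0.165 for PSMC4, PSMC5 and PSMC3. With doxorubicin PSMC4 and PSMC2 were then at −0.275 and −0.244. With the replicate block the vehicle call of PSMC3 was lost (limma adjusted p = 0.062). PSMC6 had the lowest value with doxorubicin: 4865, 4802 and 4641 reads in siNT cells and 3139, 2889 and 3310 in siMLK4 cells, a fall of 0.61 ± 0.14 (limma adjusted p = 0.0071). Stretches of 50 bases that also occur in other annotated genes cover 25.0% of the PSMC6 transcript and 29.7% of that of PSMC1. On the opposite strand another gene covers 83.2% of the exons of PSMC1, where the strand-specific counting described in the supplement assigns reads by strand.

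PSME3, a nuclear activator, had 3585, 4327 and 4275 reads in siNT vehicle cells and 3069, 3139 and 2357 after knock-down. With doxorubicin it had 3471, 3582 and 3755 against 2496, 2683 and 2580. The groups did not overlap in either condition. It fell by 0.51 ± 0.12 (limma adjusted p = 0.0067) and 0.47 ± 0.12 (limma adjusted p = 0.011), and the vehicle call was lost when the other groups were left out of the fit. PSMF1 fell by 0.32 ± 0.11 (limma adjusted p = 0.042) and 0.38 ± 0.11 (limma adjusted p = 0.020). PSMD13, of the lid, fell by 0.37 and 0.41. Under library totals these calls were lost (limma adjusted p = 0.25 and 0.071 for PSMF1 and 0.16 and 0.061 for PSMD13), and both vehicle calls were lost when the other groups were left out of the fit. The values under library totals were −0.188 and −0.302 for PSMF1 and −0.242 and −0.335 for PSMD13. With doxorubicin PSMD11 fell by 0.49 ± 0.11 (limma adjusted p = 0.0051), and it was at −0.29 ± 0.11 in vehicle cells (limma adjusted p = 0.070). PSMD3 and PSMD4 were called lower with doxorubicin, at −0.283 and −0.441, and both calls were lost with the replicate block (limma adjusted p = 0.065 and 0.060). TMM scaling and library totals also ended both calls, with values of −0.204 and −0.361 under library totals. They held in 3 and 5 of the 12 fits without 1 library. No alpha-ring gene was called in either condition, and neither was a chaperone.

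PSMB2 went the other way. It had 3713, 4095 and 3599 reads in siNT vehicle cells and 4221, 4485 and 4528 after knock-down, and with doxorubicin 2390, 2195 and 2510 against 3179, 2795 and 3453. It rose by 0.40 ± 0.11 with doxorubicin (limma adjusted p = 0.013) and was at 0.21 ± 0.11 in vehicle cells (limma adjusted p = 0.16). Of the catalytic genes PSMB7 fell with doxorubicin by 0.41 ± 0.13 (limma adjusted p = 0.032, and 0.068 under library totals, where it was at −0.325). PSMB9 was at 0.44 ± 0.18 and 0.47 ± 0.18 (limma adjusted p = 0.087 and 0.067), and PSME1 at 0.37 ± 0.19 and 0.43 ± 0.19 (limma adjusted p = 0.17 and 0.11); in siMLK4 vehicle cells both were highest in replicate 3. PSMC3IP fell in vehicle cells by 0.59 ± 0.13 (limma adjusted p = 0.0044) and was at 0.07 with doxorubicin.

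Single libraries weighed on these values. The member median in vehicle cells went from −0.20 to −0.11 without siNT replicate 1 and likewise to −0.11 without siMLK4 replicate 1, each a library of the pairs that stood furthest apart. The 10 lower calls in vehicle cells became 5 without siNT replicate 1, 4 without siNT replicate 2, 5 without siMLK4 replicate 1 or 2, and 6 without the siMLK4 doxorubicin replicate 1, while the share of all genes called lower in these 5 fits was 10.2% to 11.3%. The 15 lower calls with doxorubicin became 8, 9 and 7 without siNT replicates 1, 2 and 3, and 4 and 5 without siMLK4 replicates 1 and 2, while the share of all genes was 7.66% to 9.90%. Calls that held in every such fit were those of PSMC3IP, PSME3, PSMC4 and PSMC5 in vehicle cells, and of PSMC6, PSMD11, PSMC3 and PSMC5 with doxorubicin. For doxorubicin against vehicle, 15 of 23 calls in siNT cells and 17 of 25 in siMLK4 cells held in all 12 fits.

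**Figure D5:**
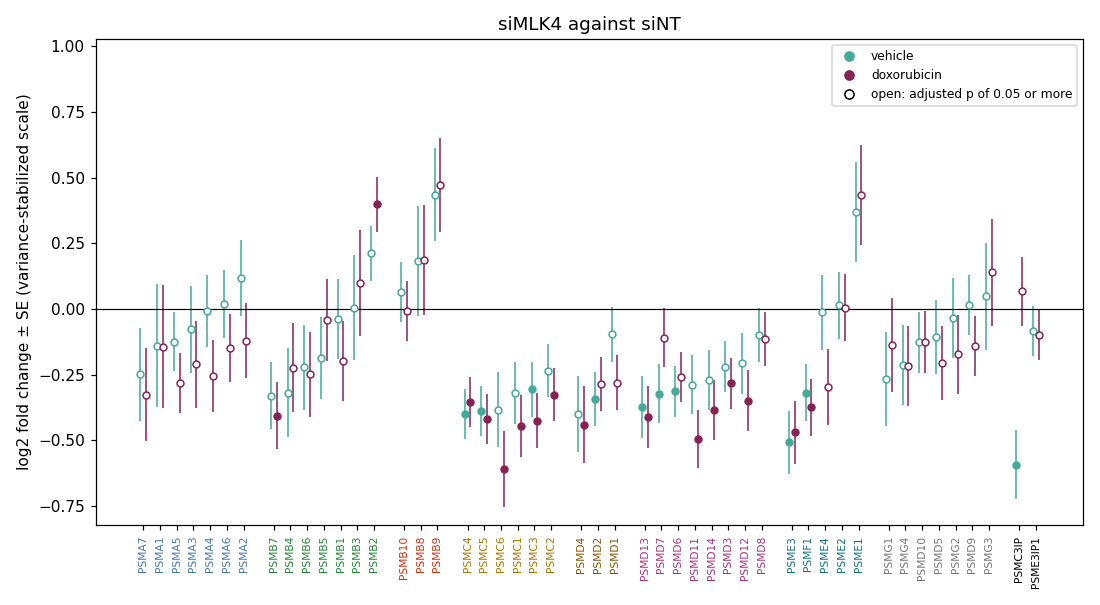
Log2 fold change (siMLK4 against siNT, ± SE from limma, n = 3 against 3) of each member in vehicle and in doxorubicin-treated cells, grouped by role; open points did not pass an adjusted p of 0.05. The 6 ATPases lie below 0 in both conditions, and PSMB2 is the member called higher.

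Genes that work with the proteasome were read from lists by role, and their counts stand beside the 27.7% of all genes called lower with doxorubicin in each siRNA group and the 29.6% and 30.2% called higher. Of 16 genes of class I antigen processing, which loads the peptides that proteasomes make, 11 rose and 1 fell with doxorubicin in siNT cells, and 10 rose and 1 fell in siMLK4 cells. The list median was 0.60 and 0.51. HLA-B rose by 1.67 ± 0.18 and 1.75 ± 0.18, IRF1, a factor that drives these genes, by 1.29 and 1.24, and TAP1, the peptide transporter gene next to PSMB9, by 0.95 and 0.88. NFE2L1 rose with doxorubicin from 4657, 4208 and 5280 reads to 10210, 12520 and 7945 in siNT cells, a change of 1.09 ± 0.20 (limma adjusted p = 0.00032), and by 1.11 ± 0.20 in siMLK4 cells, while NGLY1, whose product removes sugars from the NFE2L1 protein before it can act, fell by 0.78 and 1.02. Of the 13 genes of that list, 3 rose and 3 fell in siNT cells, and 4 rose and 1 fell in siMLK4 cells. 

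Of 13 genes for ubiquitin shuttles and the p97 unfoldase, 8 fell and none rose with doxorubicin in each siRNA group, with a median of −0.46 and −0.66. NSFL1C, a p97 cofactor, fell by 1.23 and 1.48, the shuttle RAD23B by 0.94 and 1.14, and VCP, which encodes p97, by 0.78 and 0.91. Among 14 proteasome-associated genes 2 rose and 4 fell in siNT cells and 2 rose and 3 fell in siMLK4 cells, lower shares of 28.6% and 21.4% that lie near or under the share of all genes. PAAF1, which binds the ATPases, rose by 0.73 and 0.72, and PITHD1 by 0.74 and 0.87. Of 6 genes for ubiquitin and its activating enzymes, UBB rose by 0.75 and 0.60 and UBA1 fell by 0.64 and 0.58, and the counts were 1 higher and 2 lower in siNT cells and 1 higher and 3 lower in siMLK4 cells.

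With MLK4 knock-down, UCHL5, a deubiquitinase bound to the base, fell by 0.87 ± 0.11 in vehicle cells (limma adjusted p = 7.7e-05) and by 0.72 ± 0.11 with doxorubicin (limma adjusted p = 0.00041). The lowest members were PSMC3IP at −0.59 and PSMC6 at −0.61. FAF2, a p97 cofactor, fell by 0.93 and 0.95. Of 14 proteasome-associated genes 4 fell in each condition, and none rose in vehicle cells and 2 with doxorubicin. Of the shuttle and p97 genes 3 fell and 1 rose in vehicle cells and 4 fell with doxorubicin. No ubiquitin gene was called. Over all genes 13.0% were lower and 12.7% higher in vehicle cells, and 12.1% and 12.7% with doxorubicin. The class I list had 4 higher and 1 lower in vehicle cells and 3 higher with doxorubicin, and the NFE2L1 list 1 higher and 3 lower, then 1 higher and 2 lower.

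Other multi-subunit complexes were counted in the same way, beside the 13.0% and 12.1% of all genes called lower with knock-down in vehicle and doxorubicin-treated cells. The CCT chaperonin, which folds actin and tubulin, had 8 of 8 genes lower with knock-down in vehicle cells and 7 of 8 with doxorubicin, with medians of −0.53 and −0.49. The translation initiation complex eIF3 had 3 and 7 of 12 lower, and the COP9 signalosome, a relative of the lid, 3 and 2 of 10 lower with 1 and 2 higher. With doxorubicin, CCT had 6 and 4 genes lower, eIF3 4 and 5, and COP9 4 and 3 lower with 1 and 2 higher, in siNT and siMLK4 cells; the eIF3 shares of 33.3% and 41.7% compare with 27.7% of all genes.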

How the data were processed

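The deposited table holds variance-stabilized log2 values for 17013 genes in 12 libraries; the authors aligned reads with HISAT2, counted them with HTSeq and transformed them with DESeq2 (versions per the labels: Trimmomatic 0.39, HTSeq 0.6.0, DESeq2 1.26.0). The labels give hg19 and the study's methods GRCh38. The table has Ensembl identifiers alone, so coordinates and lengths here are from GENCODE 44 (GRCh38) and may not be those used for counting. The rule that chose the genes of the table is not given in the sources used here. The transformation was inverted exactly: 100% of values came out whole at a tolerance of 0.05 reads, which gave reads per library and size factors (0.8516 to 1.1993). Normalized reads are these reads divided by the size factor.

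Tests were made with limma 3.58.1 (R 4.3.3) on the deposited log2 values, with 1 fit over all 4 groups, a variance trend, 5 contrasts and Benjamini-Hochberg adjustment over 17013 genes. Errors are limma's SE. The code was checked on simulated data. Pairing by replicate number was checked through the deviations of same-numbered libraries from their group means. These correlated above 0.1 in every pair for doxorubicin in siNT cells (0.46, 0.105 and 0.205) and for knock-down with doxorubicin (0.19, 0.516 and 0.559). The calls and counts reported are still those of the fit without a replicate block, and calls that the block ended are named. Alternatives were TMM scaling, library totals, pseudocounts of 1 and 8, limma-voom, no trend, at least 10 reads in every library, only the groups compared, the replicate block, centring in 20 bins of transcript length and leaving out each library.

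Members and lists were chosen with earlier results of these data known, and the 4 motifs, the 20% overlap and the 100 reads per kb after the files had been seen. Named genes were the catalytic pairs, the activators, the 4 highest and 4 lowest called members of each comparison, the extremes of level in each role and up to 3 called genes from each other list; further members were named after their values were seen. Versions were Python 3.11.15, pandas 2.3.3 and matplotlib 3.10.9.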

Additional observations from a re-analysis of the deposited data

Results flagged for a closer look

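TAP2, which encodes a subunit of the peptide transporter, was the 1 gene among the members and the lists whose doxorubicin response differed between the siRNA groups by the interaction term. It had 1020, 1049 and 1183 normalized reads in siNT vehicle cells and 792, 842 and 895 with doxorubicin, a fall of 0.34 ± 0.12 (log2, SE, n = 3, limma adjusted p = 0.021). In siMLK4 cells it had 869, 912 and 671 and then 1110, 1091 and 1126, a rise of 0.43 ± 0.12 (limma adjusted p = 0.0058). The difference between the responses was 0.77 ± 0.16 (limma adjusted p = 0.036), where 0.576% of all genes were called in this direction. That share ran from 0.112% to 1.13% over the fits without 1 library, and the TAP2 call is not given here for those fits.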

How the results depend on the processing

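Counts of members higher and lower by the deposited scaling were 5 and 18 (doxorubicin in siNT cells), 4 and 21 (doxorubicin in siMLK4 cells), 0 and 10 (knock-down in vehicle cells) and 1 and 15 (knock-down with doxorubicin). Library totals gave 9 and 8, 7 higher in siMLK4 cells (38.1% of all genes), 3 and 2, and 3 and 6, and 10, 7, 8 and 9 calls were lost in that order of comparisons. An adjusted p under 0.01 with a log2 change over 0.75 gave 1 and 4 (12.1% and 10.6% of all genes), 2 and 5 (12.6% and 10.6%), 0 lower with knock-down in vehicle cells, and 0 and 0 with doxorubicin. An adjusted p under 0.01 gave 3 and 11 for doxorubicin in siNT cells (23.0% and 20.8% of all genes), 4 lower for knock-down in vehicle cells (7.56%), and 0 and 4 for knock-down with doxorubicin (6.38% and 6.89%). Fitting the groups compared alone gave 3 lower for knock-down in vehicle cells (8.46% of all genes) and 3 higher with doxorubicin (15.3%). Centring by transcript length gave 1 and 3 higher for knock-down (15.1% of all genes in each). The cause of these shifts was not tested. Every other count in these comparisons was within 1.5 times the reported one under the alternatives that kept all libraries.

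Leaving out 1 library at a time gave 3 to 6 higher and 13 to 21 lower for doxorubicin in siNT cells, 3 to 6 and 15 to 21 in siMLK4 cells, 0 to 1 and 4 to 11 for knock-down in vehicle cells, 0 to 3 and 4 to 16 with doxorubicin, and 0 to 1 and 0 to 0 for the interaction. The shares of all genes were 25.7% to 30.8% higher and 23.9% to 29.4% lower for doxorubicin in siNT cells. In siMLK4 cells they were 26.0% to 31.2% and 23.2% to 28.6%. For knock-down they were 9.45% to 13.1% and 10.2% to 13.1% in vehicle cells, and 7.48% to 14.4% and 7.66% to 13.6% with doxorubicin. For the interaction they were 0.112% to 1.13% and 0.229% to 0.935%. The 3 higher calls in siNT cells came without siNT doxorubicin replicate 3, and the 1 higher call with knock-down in vehicle cells without siMLK4 vehicle replicate 1. With doxorubicin, the 1 higher call of knock-down became 0 without siNT doxorubicin replicate 2 or siMLK4 doxorubicin replicate 1 or 3, and 3 without siMLK4 vehicle replicate 3. The 1 interaction call came without siMLK4 doxorubicin replicate 3, where 1.13% of all genes were called higher against 0.576% with all libraries.

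With the replicate block the counts were 4 and 16, 4 and 21, 0 and 7, and 1 and 13. Of all genes the block called 29.6% and 27.7%, 30.2% and 27.4%, 12.7% and 12.8%, and 12.8% and 11.9% in that order. For knock-down in vehicle cells, where the pairing check failed (correlations −0.723, 0.325 and −0.523), PSMD7, PSMF1 and PSMC3 lost their calls, and none was lost for doxorubicin in siMLK4 cells (−0.077, 0.176 and 0.337). Apart from the calls named in the text, the block ended no other member's call.

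Values that changed sign belonged to members that had not been called. Library totals gave PSMB6 0.173, PSME3 0.072 and PSMF1 0.156 for doxorubicin in siNT cells, PSMB6 0.092, PSMB7 0.116, PSME3 0.055 and PSMF1 0.042 in siMLK4 cells, PSME4 0.13 for knock-down in vehicle cells, and PSMB10 0.08 and PSMB5 0.044 with doxorubicin. TMM gave PSMB7 −0.026 for doxorubicin in siNT cells and PSMB10 0.013 for knock-down with doxorubicin. Centring by length gave PSMB7 −0.106 for doxorubicin in siNT cells, PSME2 −0.03 and PSME4 0.03 for knock-down in vehicle cells, and PSMB10 0.004 with doxorubicin. Over the fits without 1 library, doxorubicin values in siNT cells ran from −0.233 to 0.075 for PSMB6 and −0.066 to 0.116 for PSMB7, and in siMLK4 cells from −0.214 to 0.042 and −0.173 to 0.049. Knock-down values in vehicle cells ran from −0.013 to 0.126 for PSMB10, −0.058 to 0.393 for PSMB8, −0.105 to 0.119 for PSME2 and −0.119 to 0.144 for PSME4, and with doxorubicin from −0.089 to 0.037 for PSMB10, −0.081 to 0.024 for PSMB5 and −0.047 to 0.06 for PSME2. Members had at least 19 reads in every library, and 44 of 48 had over 100, so depth limits mainly PSMB10 and the other genes under 100 reads per kb.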

Other observations

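The table held 7 genes with such a symbol that are not protein coding. PSMD10P2, PSMD6-AS2 and PSMC1P1 were not called with doxorubicin in siNT cells (limma adjusted p = 0.72, 0.72 and 0.86). PSMC1P1 was called lower in siMLK4 cells (limma adjusted p = 0.029). The others were called with doxorubicin in both siRNA groups, where 27.7% of all genes were called lower and 29.6% and 30.2% higher. PSMG3-AS1 had 32.9, 18.7 and 24.7 normalized reads in siNT vehicle cells and 144, 122 and 73.0 with doxorubicin, a rise of 1.22 ± 0.19 (log2, SE, n = 3, limma adjusted p = 8.7e-05), and it rose by 1.15 ± 0.19 in siMLK4 cells (limma adjusted p = 0.00014), while PSMG3 itself fell. PSMB8-AS1 rose from 17.6, 18.7 and 15.7 reads to 49.8, 39.7 and 57.8 in siNT cells (0.69 ± 0.12, limma adjusted p = 0.00031) and by 0.94 ± 0.12 in siMLK4 cells (limma adjusted p = 2.2e-05), and with doxorubicin it was higher after MLK4 knock-down by 0.47 ± 0.12 (limma adjusted p = 0.014). PSMA3-AS1 fell from 357, 301 and 341 reads to 196, 189 and 199 (limma adjusted p = 7.8e-05), and PSMA3 was not called. PSMD7-DT was at 0 in all 3 siNT vehicle libraries and at 10.2, 18.3 and 11.2 reads with doxorubicin. The doxorubicin libraries also had fewer genes at 0 reads, and the part of that shift in these low genes was not tested.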
